A study of Mus musculus with 13 samples.

Results

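The genes described are 4 adult haemoglobin genes, Hba-a1, Hba-a2, Hbb-bs and Hbb-bt, together with Alas2, in spots of mouse brain sections from a study of the retrosplenial cortex, a midline cortical area. These 5 genes were chosen by name, with their pattern over spots already known, from the 32285 genes of the spot table, and 2 of them also had a row among the 15114 genes of a table of dissociated cells. The spots came from 2 sections labelled as WT brain, called S4 and S8, cut at 10 µm, stained for NeuN and DAPI and profiled on Visium slides, an array of barcoded spots that each cover a small patch of tissue with several cells or parts of cells. The cells were neurons taken from acute slices of B6 (WT) mice by microdissection and dissociation, in 11 samples from 3 animals, each cell carrying an anterior, medium or posterior dissection level. The labels give no treatment and no age, and cells were pooled over slices. Each section is 1 library, and which labelled section sample each library is was not used, so the sections are set side by side without a test.

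Haemoglobin is a tetramer of alpha and beta chains that carries oxygen in red blood cells. In the mouse, Hba-a1 and Hba-a2 are near-identical neighbouring genes for the adult alpha chain, and Hbb-bs and Hbb-bt are neighbouring, closely similar genes for the adult beta chain. Alas2 is the erythroid form of the enzyme that starts heme synthesis, while Alas1 serves other tissues. Mature red cells have no nucleus and keep remnants of globin mRNA after leaving the marrow, and globin transcripts are a known component of RNA from tissue that holds blood.

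The promoters are shown as background on the genes, and whether their content bears on the pattern over spots was not tested. RefSeq (GRCm38.p6) sequences were matched for 5 of the 5 genes, and the 250 bases before each start are printed 5′ to 3′ with capitals on matches to the GATA-type motif GATAAG, the Krüppel-type motif CACCC, the CAAT box CCAAT and the TATA box TATAA, searched on both strands. Hba-a2 (chr11:32296242-32296491) is not printed, since 247 of 247 aligned bases were identical to Hba-a1.
Hba-a1, chr11:32283422-32283671, forward strand: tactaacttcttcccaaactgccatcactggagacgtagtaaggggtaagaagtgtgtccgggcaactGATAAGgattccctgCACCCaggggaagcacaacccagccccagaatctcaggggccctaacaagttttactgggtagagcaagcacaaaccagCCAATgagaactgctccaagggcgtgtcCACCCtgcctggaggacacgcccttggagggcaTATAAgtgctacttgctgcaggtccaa
Hbb-bs, chr7:103827929-103828178, reverse strand: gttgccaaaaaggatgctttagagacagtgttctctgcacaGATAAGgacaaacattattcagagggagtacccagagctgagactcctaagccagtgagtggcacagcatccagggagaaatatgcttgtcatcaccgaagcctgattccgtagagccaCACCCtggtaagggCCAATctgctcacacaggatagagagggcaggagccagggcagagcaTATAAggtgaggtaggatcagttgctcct
Hbb-bt, chr7:103813924-103814173, reverse strand: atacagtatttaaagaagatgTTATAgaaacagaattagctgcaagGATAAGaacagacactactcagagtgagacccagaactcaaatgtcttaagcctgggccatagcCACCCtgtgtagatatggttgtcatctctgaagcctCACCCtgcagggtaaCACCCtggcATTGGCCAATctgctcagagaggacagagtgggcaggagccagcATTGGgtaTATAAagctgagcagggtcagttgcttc
Alas2, chrX:150547167-150547416, forward strand: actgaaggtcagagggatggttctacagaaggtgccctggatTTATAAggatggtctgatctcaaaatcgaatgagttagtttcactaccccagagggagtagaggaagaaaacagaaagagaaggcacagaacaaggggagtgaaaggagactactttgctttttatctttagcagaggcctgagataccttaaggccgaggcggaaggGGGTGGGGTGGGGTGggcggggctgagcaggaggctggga

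Each of the 4 globin promoters held all 4 motifs, a combination found in 95 of 32851 RefSeq promoters of the same length (0.289%). Singly, GATAAG was in 6.55% of those promoters, CACCC in 52.0%, CCAAT in 33.8% and TATAA in 22.8%. The 4 motifs were a fixed choice made for these genes, and the Hba-a1 and Hba-a2 windows are not separate cases. The shares are therefore a description and no test of enrichment. Of the 4 motifs as spelled here, the Alas2 window held CACCC and TATAA. Other spellings of a GATA site were not searched. The TATAA matches of Alas2 lay 203 to 208 bases before the start. Each globin had a TATAA match that began 27 to 30 bases before the start. In Hbb-bt a CCAAT match on the forward strand directly follows one on the reverse strand, in Alas2 the CACCC matches lie end to end on the reverse strand, and the TATAA matches of both strands overlap there. The promoters of Hbb-bs and Hbb-bt were alike at 185 of 239 aligned bases (77.4%). A match describes letters in this window and is not evidence of a bound site. Transcript sequences, on which the assignment of reads rests, were not compared. The division of counts within the alpha pair and within the beta pair depends on how the authors assigned reads and is uncertain.

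The libraries held 8436518 counts over 1022 spots in S4 and 6389042 counts over 951 spots in S8, with a median total of 8266.5 and 6705 counts per spot. Gm42418, a predicted gene, took 2.41% of the counts in S4 and 8.45% in S8. The 2 sections shared 162 spot barcodes, which are positions on the array. Over these the members' levels had a Spearman rho of −0.061 between sections, against 0.392 for total counts. The labelled neurons expressed the neuron list in every cell sample, at 8879 to 10133 CPM.

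The beta globin Hbb-bs was the most abundant member, followed by the alpha globins, Hbb-bt and, far below, Alas2. Together the 5 genes made up 0.140% of all counts in S4 and 0.152% in S8. Levels are given in CPM, a gene's counts scaled to its section's total, with 95% exact Poisson intervals that cover counting error only, and they are not divided by transcript length. Hbb-bs had 6491 counts in S4 (769 CPM, interval 751 to 788) and 4795 in S8 (751 CPM, interval 729 to 772). These intervals overlap. Without the 20 highest spots of each section the gene was at 467 CPM in S4 and 292 CPM in S8, so the likeness of the sections rested on those spots.

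Of the alpha globins, Hba-a1 had 2398 counts in S4 (284 CPM) and 2271 in S8 (355 CPM). Hba-a2 had 1916 counts in S4 (227 CPM) and 1939 in S8 (303 CPM). Both alpha genes were thus higher in S8. This order rested on the highest spots: without the 20 highest spots of each section Hba-a1 was at 168 CPM in S4 and 141 CPM in S8, and Hba-a2 at 132 and 122 CPM. Hbb-bt had 953 counts in S4 (113 CPM) and 703 in S8 (110 CPM). Alas2 had 38 counts in S4 (4.50 CPM) and 26 in S8 (4.07 CPM). Without the 20 highest spots Hbb-bt was at 68.7 and 41.9 CPM and Alas2 at 2.67 and 1.28 CPM. Summed, the 5 genes stood at 1398 CPM in S4 and 1524 CPM in S8, and at 838 and 598 CPM without the 20 highest spots.

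Hbb-bs was found in the most spots and Alas2 in the fewest. Hbb-bs was counted in 48.7% of spots in S4 and 45.2% in S8. Hba-a1 was found in 30.7% and 26.4%, Hba-a2 in 25.7% and 27.3%, Hbb-bt in 20.3% and 14.4%, and Alas2 in 2.64% and 2.31%. At least 1 member was counted in 59.4% of spots in S4 (607 spots) and 59.8% in S8 (569 spots). After each spot was thinned to 5000 counts, which left out 75 spots of S4 and 123 of S8, these shares were 48.9% and 51.2%. Genes whose mean count in S4 was within 1.5 times that of Hbb-bs were found in a median of 98.3% of spots, against the 48.7% of Hbb-bs.

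Most globin counts came from few spots. The median spot held 1 globin count in either section, while the highest spot held 636 in S4 and 546 in S8. The 95th and 99th percentiles were 66.8 and 183 counts in S4 and 38 and 266 in S8. The highest 10% of spots carried 83.5% of the 5 genes' counts in S4 and 88.8% in S8. The 10 highest spots alone carried 28.1% of the globin counts in S4 and 43.8% in S8, and globins reached 6.71% and 9.13% of all counts in a single spot. At the other end, 348 spots of S4 and 387 of S8 held 1 to 3 globin counts each and together 4.39% and 6.0% of the globin total.

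Ranked by the share of a gene's counts in its highest 10% of spots, the 4 globins took the first 4 places of 2466 genes with a mean of at least 0.5 counts per spot in both sections. For Hbb-bs that share was 82.9% in S4 and 88.5% in S8, and for Hbb-bt 87.7% and 94.0%. The next gene was Ptgds, a prostaglandin D synthase made by meningeal cells among others, at 60.8% and 61.5%. By the Fano factor (variance over mean of the counts per spot), Hbb-bs reached 83.2 in S4 and 114 in S8 and Hba-a1 34.1 and 54.0. The level did not follow the depth of the spot: the Spearman rho of the 4 globins' counts with the spot total was 0.006 in S4 and 0.048 in S8, whereas genes of the abundance of Hbb-bs had a median rho of 0.515 and 0.445. A low rho was not particular to globins. The lists of mural and of meningeal fibroblast genes described below had 0.088 and 0.032 in S4 and 0.029 and 0.133 in S8. The endothelial list had 0.275 and 0.239.

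**Figure D1:**
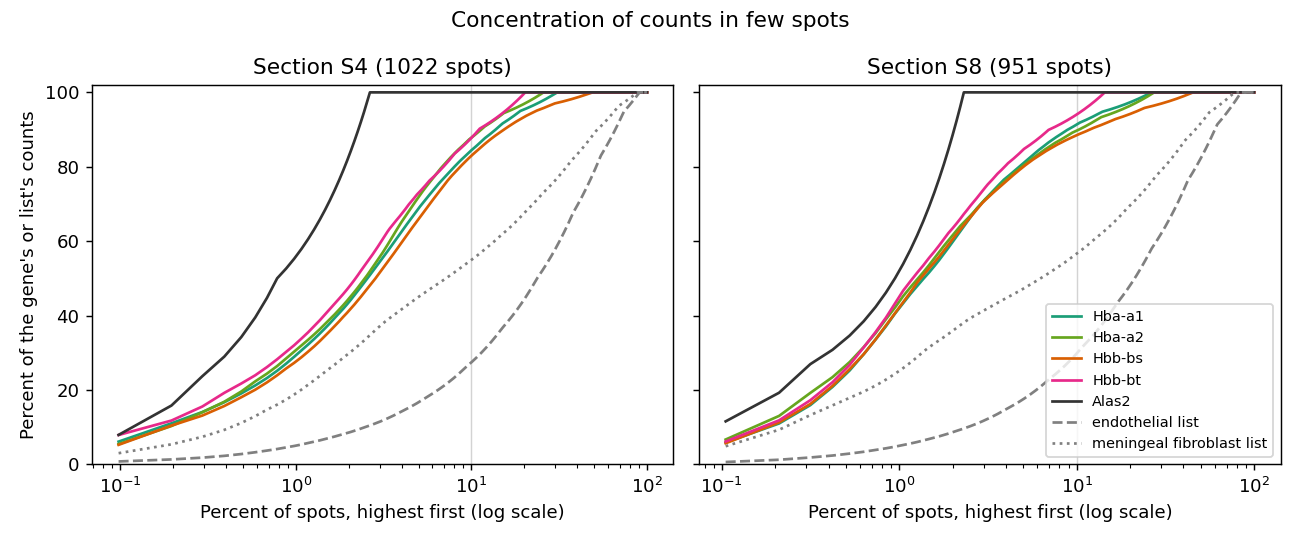
Cumulative percent of each gene's or list's counts (y axis) against the percent of spots taken from the highest down (x axis, log scale), for S4 and S8. The grey vertical line marks 10% of spots, where the globin curves stand above 80% of counts and the summed endothelial list (dashed) at 27.4% in S4 and 29.7% in S8.

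The genes of the alpha and beta chains rose and fell together from spot to spot. On log2(counts per 10000 + 1), the summed alpha and summed beta globins had a Pearson r of 0.873 (Spearman rho 0.667) over the 1022 spots of S4 and 0.816 (rho 0.527) over the 951 spots of S8. These are descriptions over spots that share a library and a slide, so no p is given. Pairs of globin genes had a Pearson r of 0.758 to 0.862 in S4 and 0.744 to 0.820 in S8. Detection overlapped in the same way: 62.1% of the spots with Hba-a1 in S4 also held Hba-a2, against 25.7% of all spots, and in S8 the shares were 58.6% and 27.3%. Of the spots with Hbb-bt, 85.5% in S4 and 84.7% in S8 also held Hbb-bs.

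Alas2, counted in 27 spots of S4 and 22 of S8, lay where globin counts were high. Its spots held a median of 103 globin counts in S4 and 166 in S8, against 1 in the spots without it. Of these spots, 24 of 27 in S4 and 19 of 22 in S8 were among the highest 10% of spots for globins, and 1 in each section had no globin count. Relative to the globins, Alas2 gave 3.15 counts per 1000 globin counts in S4 (95% interval 2.22 to 4.34) and 2.58 in S8 (1.67 to 3.80), and these intervals overlap. In spots with 100 or more globin counts the ratio was 4.05 (2.67 to 5.89) in S4 and 3.10 (1.90 to 4.79) in S8. Its Pearson r with single globins was 0.410 to 0.466 in S4 and 0.486 to 0.568 in S8.

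**Figure D2:**
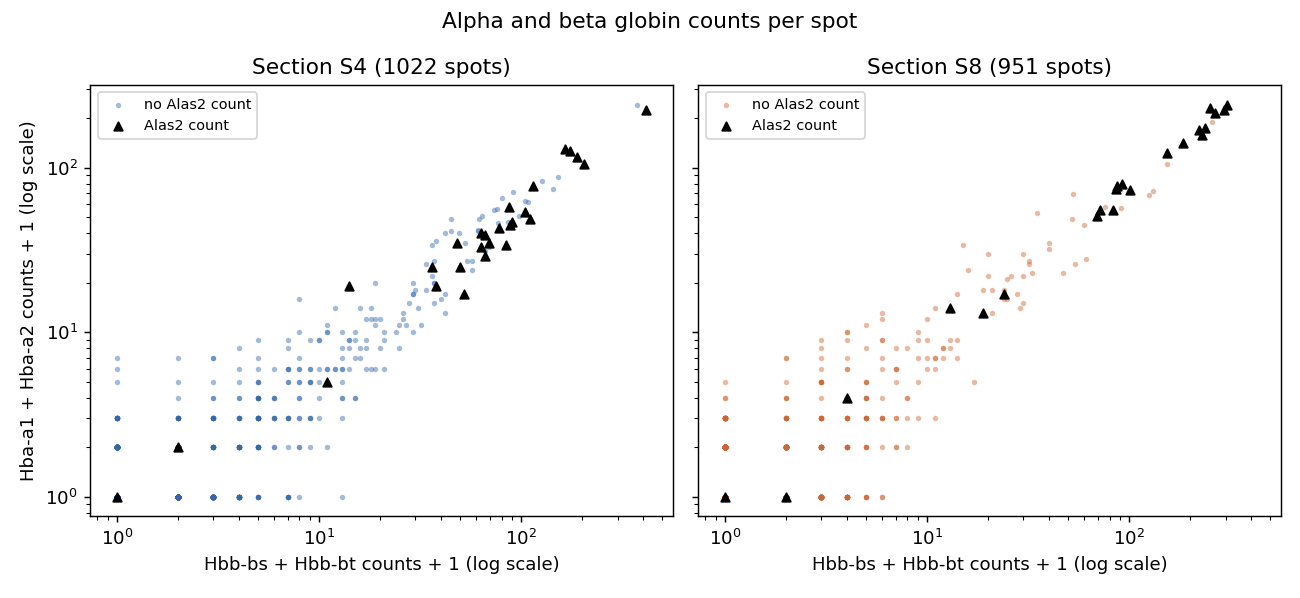
Summed alpha globin counts + 1 (y axis, log scale) against summed beta globin counts + 1 (x axis, log scale), 1 point per spot, for S4 and S8. Black triangles are the 27 and 22 spots with an Alas2 count, which lie mostly at the upper right of a single diagonal band.

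The balance between the chains differed between the sections. Alpha globins were 36.7% of the globin counts in S4 (95% exact binomial interval 35.8 to 37.6) and 43.4% in S8 (42.4 to 44.4). S8 also had the larger share of Gm42418; its part in this difference was not tested. Within the chains the sections were close when all spots were pooled. Hba-a1 was 55.6% of the alpha counts in S4 (54.1 to 57.1) and 53.9% in S8 (52.4 to 55.5). Hbb-bs was 87.2% of the beta counts in both. In spots with 1 to 3 globin counts Hba-a1 was 64.5% of the alpha counts in S4 (56.4 to 72.0) and 48.0% in S8 (41.2 to 54.8). In spots with 100 or more it was 54.4% and 53.9%. The alpha share was lowest in spots with 1 to 3 globin counts, at 30.04% in S4 (26.1 to 34.2) and 38.0% in S8 (34.0 to 42.1). In S8 it was highest, at 47.4% (43.6 to 51.2), in spots with 10 to 29 counts. In spots with 100 or more it was 37.7% (36.5 to 38.8) in S4 and 43.2% (42.0 to 44.4) in S8.

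Single spots varied around these shares somewhat more than counting alone gives. Over the 82 spots of S4 with at least 30 globin counts, the alpha share ran from 22.6% to 58.1% with an SD of 7.02 percentage points, where binomial counting gives 5.72. Over the 53 such spots of S8 it ran from 31.0% to 70.2%, with an SD of 7.62 against 5.82. The Hbb-bs share of beta counts had an SD of 7.07 against 4.43 over 66 spots of S4 and 5.17 against 3.92 over 34 spots of S8.

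**Figure D3:**
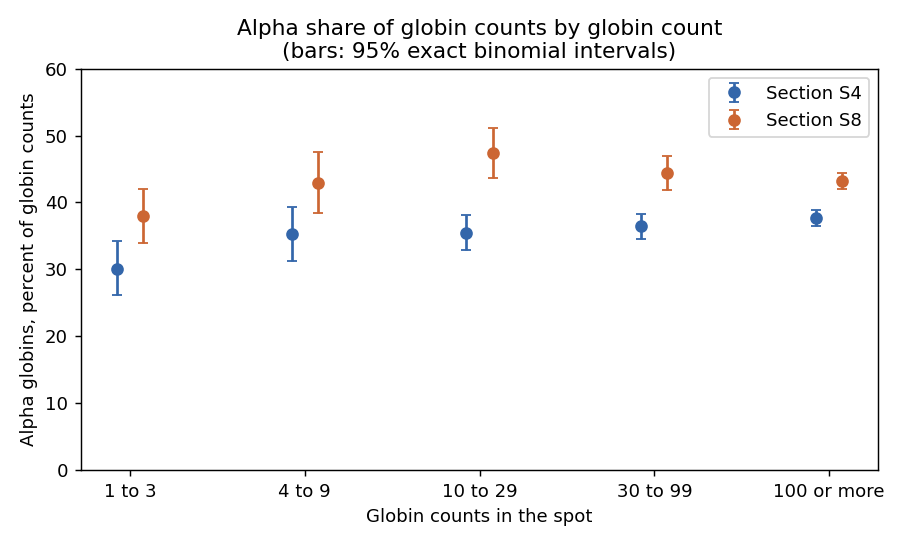
Alpha globins as a percent of globin counts (y axis) for spots grouped by their globin count (x axis), with 95% exact binomial intervals, for S4 and S8. S8 lies above S4 in every group, from 38.0% against 30.04% at 1 to 3 counts to 43.2% against 37.7% at 100 or more.

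Several defining genes of the red cell and its precursors were at or near 0. Of the 34 erythroid genes with a row, 10 had no count in S4 and 14 in S8. Slc4a1, the anion exchanger of the red cell membrane, had 3 counts in S4 and 0 in S8. The erythroid transcription factor genes Gata1 and Klf1 had 0 counts in S4, and 0 and 2 in S8. The most abundant genes of that list, Bnip3l, Car2 and Add2, are also expressed in brain. Bnip3l (mitophagy) was at 168 and 152 CPM, Car2 (carbonic anhydrase) at 158 and 160 CPM and Add2 (membrane skeleton) at 99.3 and 123 CPM, each with a Spearman rho of 0.004 to 0.070 with the summed members. Scarce genes of the list ranged more widely. Isg20 (7 and 13 counts) had a rho of 0.103 and 0.097, and Slc4a1 0.092 in S4. Ube2l6 (22 and 24 counts) had 0.052 and 0.092, and Tal1 (18 and 17 counts) 0.005 and −0.068. The whole list had a rho of 0.013 in S4 and 0.049 in S8, and stood at 1229 CPM in the 10 highest globin spots of S4 against 934 CPM in the others, and at 1262 against 950 CPM in S8. The members were at 1971 CPM in the 256 spots of S4 with the highest level of this list and at 1224 CPM in the 256 lowest, and at 2836 and 931 CPM in the 238 highest and lowest of S8. The embryonic globins Hba-x and Hbb-bh1 had 0 counts in both sections. A count of 0 allows up to 3 counts in a library, which covers counting error only.

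The remaining enzymes of heme synthesis were more abundant than Alas2 and spread over many spots. Alas1 was at 41.6 CPM in S4 and 45.9 CPM in S8, Fech, which inserts iron into the porphyrin ring, at 49.7 and 44.0 CPM, and Urod, a decarboxylase of the pathway, at 28.9 and 30.5 CPM. Their rho with the members lay between −0.027 and 0.042. The summed heme synthesis list had a rho of −0.056 in S4 and 0.016 in S8. Among genes of heme and iron handling, the ferritin genes Fth1 and Ftl1 had a rho of 0.013 and 0.115 in S4 and 0.079 and 0.045 in S8, and the hemopexin receptor gene Lrp1 0.009 and 0.010. Cygb and Ngb, globins of non-erythroid tissue and of neurons, had a rho of −0.031 and 0.021 in S4 and −0.039 and −0.034 in S8. Fewer cells of a type in a spot and less RNA per cell cannot be told apart in these values.

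Genes of vessel walls varied with the globins only weakly over spots. The endothelial list (20 genes, 393 CPM in S4 and 387 CPM in S8) had a Spearman rho with the members of 0.126 in S4 and 0.113 in S8. Its most abundant genes were Slc2a1, the glucose transporter of the blood-brain barrier, Cd34 and Itm2a, with rho values of 0.024, −0.008 and 0.058 in S4 and 0.037, 0.001 and 0.084 in S8. The mural list of pericytes and smooth muscle (15 genes, 146 and 150 CPM) had a rho of 0.077 and 0.079. Within it, Vtn was at 0.081 and 0.108, the pericyte gene Rgs5 at 0.027 and 0.063, and Mylk, the myosin light chain kinase of smooth muscle, at −0.021 and −0.066.

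In the 256 spots of S4 with the highest endothelial level the members stood at 2585 CPM, and in the 256 with the lowest at 815 CPM. The 238 highest and 238 lowest spots of S8 gave 2285 and 1124 CPM. The median spot held 1 member count in all 4 of these groups. Members were counted in 64.8% of the highest and 52.7% of the lowest spots in S4, and in 67.6% and 55.0% in S8. Endothelial counts were far more even than globin counts, with a Fano factor of 2.15 in S4 and 2.09 in S8. Spots with the highest and lowest level of the microglia list, described below, gave 2977 and 786 CPM of the members in S8. In S4 the order was opposite, at 1263 and 1617 CPM.

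Among the 15 lists, the meningeal fibroblast list had the highest rho in both sections, 0.186 in S4 and 0.201 in S8. Ptgds made up 77.7% of that list's counts in S4 and 80.6% in S8. Without it the other 16 genes had a rho of 0.132 and 0.120. Dcn, a matrix proteoglycan, stood at 0.061 and 0.060, and Igfbp2 at 0.059 and 0.010. The choroid plexus list had a rho of 0.105 and 0.0998, with Ttr, its transthyretin gene, at 0.124 and 0.121 and in 2.64% and 7.05% of spots.

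Markers of other blood and border cells were scarce. The blood leukocyte list had 5 counts in S4 and 9 in S8, with 7 and 6 of its 11 genes at 0, and S100a8 of neutrophils had 2 counts in each section. The platelet list had 52 and 36 counts, led by Itga2b (23 and 22) and Pf4 (25 and 10), and a rho of 0.077 and 0.053. Gp1ba and Tubb1 were at 0 in both sections, Ppbp at 0 and 1 and Gp9 at 2 and 2. Pf4 is also in the border macrophage list, so its counts enter both. Border macrophage genes had 60 and 45 counts, with Mrc1 at 20 and 16, and a rho of 0.073 and 0.068. Microglial genes had a rho of 0.030 in S4 and 0.117 in S8. Astrocyte genes, led by Slc1a3, stood at 0.090 and 0.085, and oligodendrocyte genes, led by Mbp, at −0.010 and 0.092. The neuron list, led by Snap25 and Nrgn, was the lowest in both sections, at −0.075 and −0.132.

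**Figure D4:**
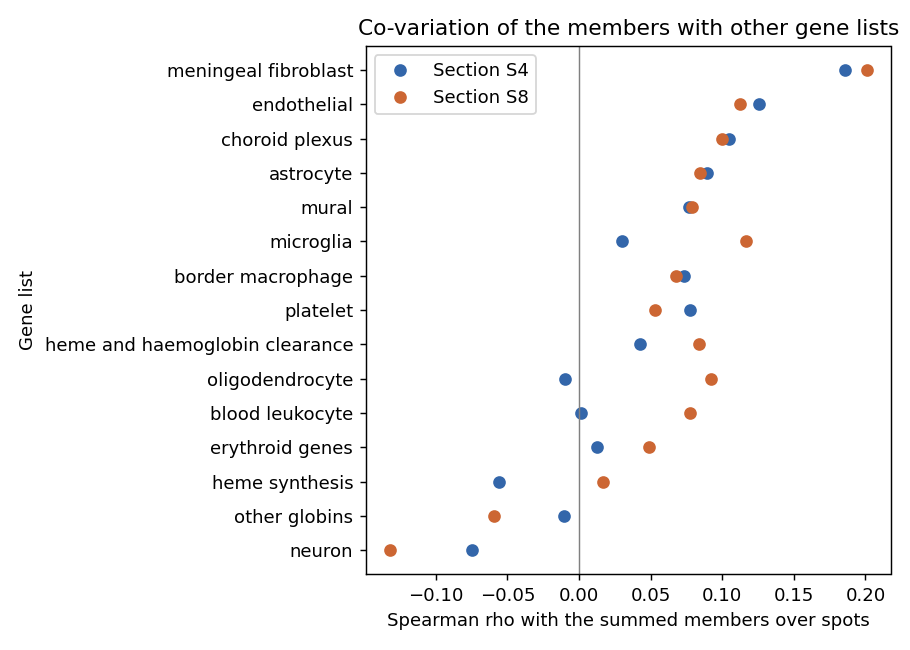
Spearman rho over spots between the summed 5 members and each of 15 gene lists (y axis), on log2(counts per 10000 + 1), for S4 (blue) and S8 (orange). All values lie between −0.132 (neuron, S8) and 0.201 (meningeal fibroblast, S8).

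Of 9600 other genes counted in at least 5% of spots in both sections, none followed the members as closely as the globins followed each other. Genes found in fewer spots were not ranked. Alas2 itself, in 2.64% of spots in S4 and 2.31% in S8, lies under that limit. Ranked by the lower of the 2 rho values, the most alike was Ptgds with 0.171 in S4 and 0.190 in S8. It was followed by Ndrg2 (0.112 and 0.102) and the metallothionein gene Mt1 (0.122 and 0.102). The others of the first 10 were Bc1, a brain cytoplasmic RNA, the lipid carrier gene Apoe, Aldoc, Sparcl1, Cst3, Ahnak and Slc7a11, with values of 0.093 to 0.163. In sparse counts rho values of this size are no finding about single genes.

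Spots were also grouped by their other genes, with the members left out of the clustering, into 9 clusters, called regions here by their leading genes. Spot positions were not used, so a region is a group of spots with like expression and not a mapped area. The members' level differed in order between the sections. In S4 the highest was the region led by Ptgds, Gfap and Aqp4, at 3377 CPM over 108 spots, and the same region held 1876 CPM over 88 spots in S8. In S8 the highest was the region led by Trh, Dlk1 and Calb2, at 3679 CPM over 156 spots. It held 38.4% of the section's member counts and 15 of its 26 Alas2 counts, and in S4 it stood at 1411 CPM over 121 spots. The region led by Tshz2, Nrep and Slc17a6 had 1526 CPM in S4 and 1573 CPM in S8. The region led by Kcng1 and Ccn2 had 702 and 374 CPM.

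Few spots set these regional levels. The median spot held 0 to 2 member counts in every region of either section. The Trh, Dlk1 and Calb2 region had 10 spots with at least 100 member counts in S8 and 4 in S4, and the Ptgds, Gfap and Aqp4 region 3 in S8 and 6 in S4. With coarser clustering (resolution 0.5), 43 spots led by the meningeal genes Ogn, Fmod and Slc13a4 separated. They had 8128 CPM over 32 spots in S4, where 1 spot reached 612 counts, and 1166 CPM over 11 spots in S8, where none passed 7.

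The 10 highest spots of each section differed in what they held besides the globins. In S4 they held 2151 CPM of the meningeal fibroblast list against 621 CPM in the other spots, and 296 against 144 CPM of the mural list. In S8 they held 508 against 598 CPM of the meningeal and 137 against 150 CPM of the mural list. The endothelial list was higher there in both, at 658 against 390 CPM in S4 and 617 against 385 CPM in S8. Lists of other cells also differed. The microglia list was at 198 against 303 CPM in S4 and 521 against 288 CPM in S8. The oligodendrocyte list was at 2381 against 2208 and 3965 against 2698 CPM, and the neuron list at 7341 against 7036 and 5598 against 7531 CPM. Their median total, 8982.5 counts in S4 and 6972.5 in S8, was near that of the other spots, 8252 and 6700.

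In dissociated cells, globins were detected at a low level in a minority of cells. Only Hba-a1 and Hba-a2 of the 5 genes had a row. Hbb-bs, Hbb-bt and Alas2 had none by name or RefSeq synonym. Every gene in that table was counted in at least 10 cells. Whether the missing rows come from low detection or from other gene names in the authors' annotation was not tested. Hba-a1 had 87 counts in 74 of 765 cells (9.67%, 95% interval 7.67 to 11.99), or 0.748 CPM. Hba-a2 had 141 counts in 57 cells (7.45%, 5.69 to 9.55), or 1.21 CPM. For comparison, CPM in the sections were 284 and 355 for Hba-a1, with another assay and other normalising totals. The highest count in a cell was 3 for Hba-a1 and 7 for Hba-a2. A single count was held by 62 of the 74 cells with Hba-a1 and 22 of the 57 with Hba-a2. Counts per detecting cell were 1.18 and 2.47. Genes found in a like number of cells (within 1.5 times) had medians of 8.11 and 7.55. Detection was thus near the floor, and these shares are not shares of cells shown to express the genes. No cell type that lacks these genes was set apart in the table, so a background share of cells is not given.

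Unlike in spots, the 2 alpha genes were seldom counted together: 6 cells held both. That is 8.11% of the cells with Hba-a1, next to 7.45% of all cells with Hba-a2. Every sample held both genes. The share of cells with Hba-a1 was 9.60% ± 4.12 (SD, n = 11 samples), from 3.85% to 17.9%, and with Hba-a2 7.40% ± 3.28, from 3.75% to 9 of 75 cells in sample 11. In the 3 animals the shares were 8.55%, 10.2% and 9.71% for Hba-a1 and 7.24%, 6.58% and 8.41% for Hba-a2. The animals pooled 152, 304 and 309 cells, while samples held 32 to 80. A smaller spread is given by the larger cell numbers alone, and is no measure of likeness between animals. The genes did not peak in the same sample: sample 17 was highest for Hba-a1 and held 3.85% for Hba-a2, and sample 11 was highest for Hba-a2, with 9 of 75 cells, and held 13.3% for Hba-a1. None of the border macrophage or blood leukocyte genes had a row in the cell table, while 7 of 20 endothelial genes did, at 177 to 332 CPM per sample. Other lists had rows too: 13 of 35 erythroid genes at 603 to 767 CPM and 7 of 7 oligodendrocyte genes at 86.6 to 332 CPM. The mural and meningeal fibroblast rows ran from 2.60 to 353 and from 5.71 to 290 CPM. Whether neurons themselves express these genes was not tested.

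**Figure D5:**
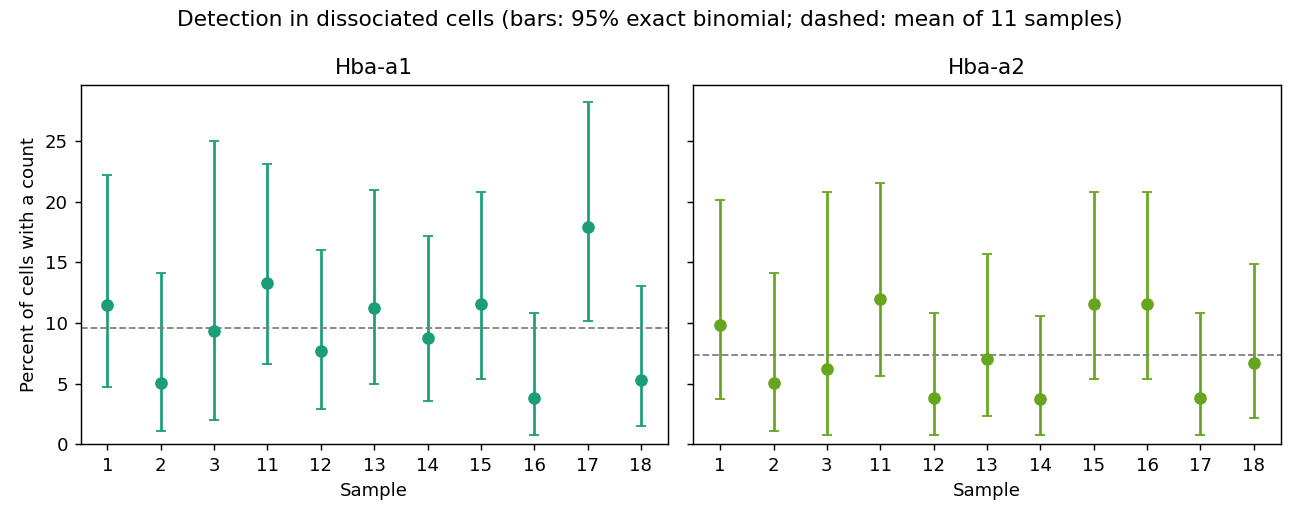
Percent of cells with a count of Hba-a1 (left) and Hba-a2 (right) in each of the 11 samples of dissociated cells (x axis: sample number), with 95% exact binomial intervals and the mean of the samples as a dashed line. The intervals are wide and most samples' intervals overlap, with Hba-a1 highest in sample 17 at 17.9% and Hba-a2 in sample 11.

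The alpha globins did not pass the test along the anterior to posterior axis of the dissection. Counts were summed per animal and level and tested with edgeR's quasi-likelihood test over 13628 genes, where a call needed a log2 fold change of 1 or more in either direction and a Benjamini-Hochberg adjusted p under 0.05. Hba-a1 was at 1.11, 0.705 and 0.912 CPM in the anterior sums of animals 1, 2 and 3, at 0, 0.721 and 0.592 CPM in the medium sums, and at 1.77, 1.05 and 0.294 CPM in the posterior sums. The levels overlapped. Its log2 fold change was −0.78 (SE 1.16, interval −3.27 to 1.72) for medium and 0.16 (SE 1.13, interval −2.27 to 2.59) for posterior, both against anterior, with adjusted p = 0.999 and 1.00 in edgeR.

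Hba-a2 was at 0.831, 1.60 and 0.738 CPM in the anterior sums, at 1.33, 1.28 and 2.31 CPM in the medium sums and at 1.42, 0.610 and 0.736 CPM in the posterior sums. These also overlapped. Its log2 fold change was 0.61 (SE 0.98, interval −1.50 to 2.72) for medium and −0.25 (SE 0.98, interval −2.35 to 1.86) for posterior against anterior, with adjusted p = 0.999 and 1.00 in edgeR. The single sums held 0 to 39 counts, and the intervals include changes of several fold either way. The posterior log2 fold change turned negative for Hba-a1 without animal 1 or 2 and positive for Hba-a2 without animal 2. In each comparison 1 of 13628 genes was called (0.00734%), beside which 0 of the 2 alpha genes were called. At an unadjusted p under 0.05 edgeR gave 449 genes for medium and 594 for posterior. With the animal as a block it called 1 gene for medium and 14 for posterior, and neither alpha gene. DESeq2 called 6 and 57.

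The called gene was Ptgds in both comparisons, which was also nearest to the members over spots among the genes ranked above. It was at 121 to 474 CPM in the 3 anterior sums, at 1.84 to 4.81 CPM in the medium sums and at 0.883 to 2.66 CPM in the posterior sums, which do not overlap the anterior. Its log2 fold change was −6.34 (SE 0.61, adjusted p = 0.000872 in edgeR) for medium and −7.26 (SE 0.63, adjusted p = 0.000247 in edgeR) for posterior. Without animal 1 no gene was called for medium against anterior, although Ptgds was at 153 against 4.81 CPM in animal 2 and 121 against 1.84 CPM in animal 3. The alpha globins had no such gap between the levels.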

How the data were processed

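Both tables hold whole-number counts as deposited by the authors, per gene and spot or cell, not normalized as far as the values show. The submitters' processing notes list Seurat and NCBIM37 for the cells and Space Ranger, Seurat, NCBIM37 and mm10 for the sections, without roles; how reads of near-identical genes were assigned, and whether the cell counts are molecules, is not given in the sources used here. Replicates are samples the labels separate, and no column was left without a sample (0).

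The members, the lists and the tests were chosen with earlier results of these data known. Named genes were the 5 members, up to 3 genes of highest mean CPM per list, and the 10 genes most alike over spots; defining markers at or near 0 and genes leading a cluster are named in addition. Spots were scaled to 10000 counts with a pseudocount of 1. Intervals are exact at 95% and cover counting error only. Shares were also taken after thinning to 5000 counts. Clusters came from scanpy 1.11.5 (2000 genes, 30 components, 15 neighbours, resolution 1, seed 1), each gene centred within its section, members left out. Spots were not tested, since their values chose the genes. Doublets were not called; the names of the cells give a plate and well.

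Counts of cells summed per animal and level were tested with edgeR 4.0.16 (filterByExpr, TMM, glmQLFTest) in R 4.3.3 and, as an alternative, DESeq2 1.42.0. The code was tested on simulated data. Sums of 1 animal are paired by that animal, which the deposited table gives; the fit with this block is an alternative. Other alternatives were the filter, totals, thinning, pseudocount, highest spots, coarser clusters and leaving out each sample, animal or section.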

Additional observations from a re-analysis of the deposited data

How the results depend on the processing

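With 1 library per section, 3 animals and single sums of few counts, the depth limits what can be said of differences between levels of the dissection. Of 165 recomputed values, 101 were close to the reported one (levels, shares and correlations by less than the SD between sections or samples, counts of called genes within 1.5 times, and fold changes in sign and call), 61 were not and 3 changed sign; the causes were not tested. The summed members were at 1613 CPM in S4 and 1853 CPM in S8 with totals free of Gm42418 and mitochondrial genes, and at 838 and 598 CPM without the 20 highest spots. Thinning lowered the share of spots with a member to 48.9% and 51.2%. The Pearson r of alpha with beta globins was 0.982 and 0.989 on raw counts, 0.737 and 0.628 with a pseudocount of 0.1, and 0.722 in S8 without the highest spots.

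The Pearson r of members with the endothelial, mural and meningeal lists was 0.156, 0.104 and 0.216 in S4 and 0.117, 0.0892 and 0.212 in S8. With a pseudocount of 0.1 it was 0.111, 0.0622 and 0.173 in S4 and 0.0865, 0.0669 and 0.204 in S8. Without the highest spots it was 0.126 for the endothelial list in S4 and 0.102 for the mural and 0.249 for the meningeal list in S8. In thinned spots it was 0.177 for the meningeal list in S4 and 0.0658, 0.0433 and 0.134 for the 3 lists in S8. With other totals the meningeal r was 0.221 and 0.216, and without Ptgds, chosen after seeing the data, 0.136 and 0.153. The highest cluster level, a mean of 2627 CPM over the sections, was 4647 CPM at resolution 0.5.

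DESeq2 called 6 genes for medium and 57 for posterior against anterior, and the fit with the animal as a replicate block, which pairs the sums of an animal, 1 and 14; none was a member. Without 1 animal, 0 to 1 genes were called for medium and 1 to 2 for posterior, and the posterior log2 fold change ran from −0.32 to −0.017 for Hba-a1 (without animal 3 it was not tested, as its sums failed the filter) and from −0.79 to 0.43 for Hba-a2. The mean level with 1 section left out was 1398 or 1524 CPM, and leaving out samples or animals moved the share of cells from 8.73% to 10.3% for Hba-a1 and from 6.80% to 8.03% for Hba-a2.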

Other observations

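Globins with no or very few counts in the sections had counts in the dissociated cells, whose table is far deeper. Hba-x, an embryonic alpha-like globin, had 47 counts in 36 of 765 cells (4.71%) and 0 counts in either section. Hbq1b, a theta globin, had 135 counts in 26 cells, with up to 28 in a single cell, and 1 count in S4 and 0 in S8. Hbb-bh1, an embryonic beta-like globin, had 22 counts in 10 cells and 0 counts in either section. By animal, Hba-x was found in 0.658%, 4.93% and 6.47% of cells and Hbq1b in 0.658%, 4.93% and 3.24%. The adult genes were at 0.748 CPM (Hba-a1) and 1.21 CPM (Hba-a2) in the cells, next to 0.404 CPM for Hba-x and 1.16 CPM for Hbq1b. The cell table held 116280075 counts, against 8436518 in S4 and 6389042 in S8. As 0 counts in a section allow up to about 3 by the 1-sided limit given above, absence of Hba-x or Hbb-bh1 from the sections is not shown. All these values are counts from 2 assays with separate processing, and the difference between them was not tested.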
